A study of Homo sapiens with 12 samples.

Results

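The nuclear genome encodes most subunits of respiratory complexes II to V, and the messenger RNA levels of these genes are described here in HEK293 cells, a human embryonic kidney line, with and without expression of the splicing factor RBFOX1. Members were the genes with the symbol SDHA, SDHB, SDHC, SDHD or CYC1, or with a symbol starting UQCR, COX4, COX5, COX6, COX7, COX8 or ATP5, the older names of ATP synthase subunits, without pseudogenes. The rule found 43 genes among the 30167 that stood in the gene tables of both experiments. For 40 of them the tables gave the symbol, and the other 3 (SDHD, COX6B2 and COX8C) were named from their gene identifiers. They comprised 4 genes of complex II, 10 of complex III, 13 of complex IV and 16 of complex V. A further 3 genes, COX4I2, COX7A1 and COX7B2, stood only in the table of experiment 1 with 0 to 3 reads per library, and COX6A2 was not analysed here.

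RNA was sequenced from 12 samples, 3 in each of 4 groups. The line HEK293_Flp In/TO ΔFox2_Flag_mFox1 comes from an Rbfox2-deficient clone, Rbfox2 being a relative of RBFOX1, and holds an HA-Flag-tagged Rbfox1 gene whose promoter responds to doxycycline. In experiment 1 the control was this line without treatment (uninduced), and in experiment 2 it was parental HEK293 with doxycycline (parental). In both experiments the other group was the line given doxycycline (induced), at 0.5 µg/ml over 2 weeks per the labels. Parental cells were taken to have had the same dose and duration. Both arms of experiment 1 therefore share the Rbfox2 deficiency, and there doxycycline and RBFOX1 cannot be told apart. The arms of experiment 2 differ in RBFOX1, in Rbfox2 and in being parental cells or a derived clone, which cannot be told apart either. The labels do not say whether replicates were separate cultures, so the p-values rest on the spread of these samples alone, and that spread may be technical.

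The respiratory chain passes electrons from nutrients to oxygen across the inner mitochondrial membrane. Complex II, succinate dehydrogenase, feeds electrons from the citric acid cycle to ubiquinone without moving protons. Complex III passes them to cytochrome c, and complex IV to oxygen. Both pump protons, and complex V, the ATP synthase, lets the protons flow back to make ATP. Complex II is encoded entirely in the nucleus, whereas complexes III to V also hold subunits encoded by mitochondrial DNA. Kidney tubule cells are rich in mitochondria, but cultured lines such as HEK293 also rely on glycolysis.

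Library totals ran from 34025315 to 55298749 counts. The members took 0.3396% to 0.4053% of counts in experiment 1 and 0.5504% to 0.5879% in experiment 2, with the lowest share in uninduced library 3. Its mean correlation with the rest of its group was also the lowest (0.992). The mitochondrial ribosomal RNA MT-RNR2 took 21.7% to 24.1% of counts in experiment 1 and 0.0286% to 0.0638% in experiment 2. RBFOX1 had 3.504 to 4.71 CPM (reads per 1000000 of the scaled library size) in uninduced, 41.5 to 42.5 in induced, 0 in parental and 36.8 to 38.4 in the induced cells of experiment 2, as labelled. RBFOX2 had 170.3 to 172 CPM in parental cells and 43.6 to 62.5 in the other 9 libraries, so reads of this gene were still counted in the deficient line. Of 7 HEK293 markers, 6 were found. In experiment 1, KRT8 was lower in induced cells (-0.71 on the log2 scale) and the other 5 were not called. In experiment 2, KRT8 (-0.60), KRT18 (-0.39) and NEFM were lower, INA was higher and VIM and PAX2 were not called. NEFM had 33.6 ± 2.06 CPM (SD, n = 3) in parental cells against 0.210 to 0.469 in the means of the other groups, and INA rose from 20.1 ± 0.869 to 59.2 ± 4.26 CPM. The part of these marker changes in the results was not tested. Summed markers of haematopoietic cells, fibroblasts, hepatocytes and germ cells stayed at or under 1.75 CPM in every library. Those of heart and skeletal muscle came to 6.88 to 17.1 CPM, most of it ACTN2, which rose in experiment 2 from 7.58 ± 0.772 to 16.2 ± 0.763 CPM.

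The members did not move as a block in either experiment, and most of what moved did so in experiment 2. Levels are CPM with library sizes scaled by TMM, on 1 scale for all 12 libraries. A gene was called higher or lower where the adjusted p of the edgeR test was under 0.05. Of the 43 members, 40 had enough reads to be tested in each experiment, and COX6B2, COX8C and ATP5L2 had at most 14 reads in a library. In experiment 1, 5 members were higher in induced cells (SDHB, ATP5G1, ATP5G3, ATP5J and ATP5J2) and 0 were lower, where 20.9% of the 18978 genes tested were called, 10.5% higher and 10.4% lower. At an unadjusted p under 0.05 there were 9 of the 40 tested members, against 6622 of the 18978 genes. In experiment 2, 7 members were higher and 20 lower than in parental cells, where 65.0% of 17945 genes were called, 32.1% higher and 32.9% lower. The members' share of calls in experiment 2 was near that of all genes, with more calls on the lower side. Among genes as abundant as most members (mean log2 CPM of at least 5), 78.5% were called in experiment 2, against 25 of 34 members, and 24.8% in experiment 1, against 5 of 34 members.

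The median log2 fold change of the 40 tested members was 0.13 in experiment 1, with 34 of 40 above 0, and -0.13 in experiment 2, with 28 of 40 below 0. Over all genes tested the medians were 0.0026 and -0.0090. Without uninduced library 3 the median of experiment 1 was 0.059, and 7 members were called higher and 1 lower. In experiment 1 the 3 uninduced and 3 induced libraries did not overlap for 8 of the 40 members, against 39.9% of all genes tested. In experiment 2 they did not overlap for 29 of 40, against 67.9%. In bulk RNA, fewer cells with a transcript and less of it per cell cannot be told apart.

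**Figure D1:**
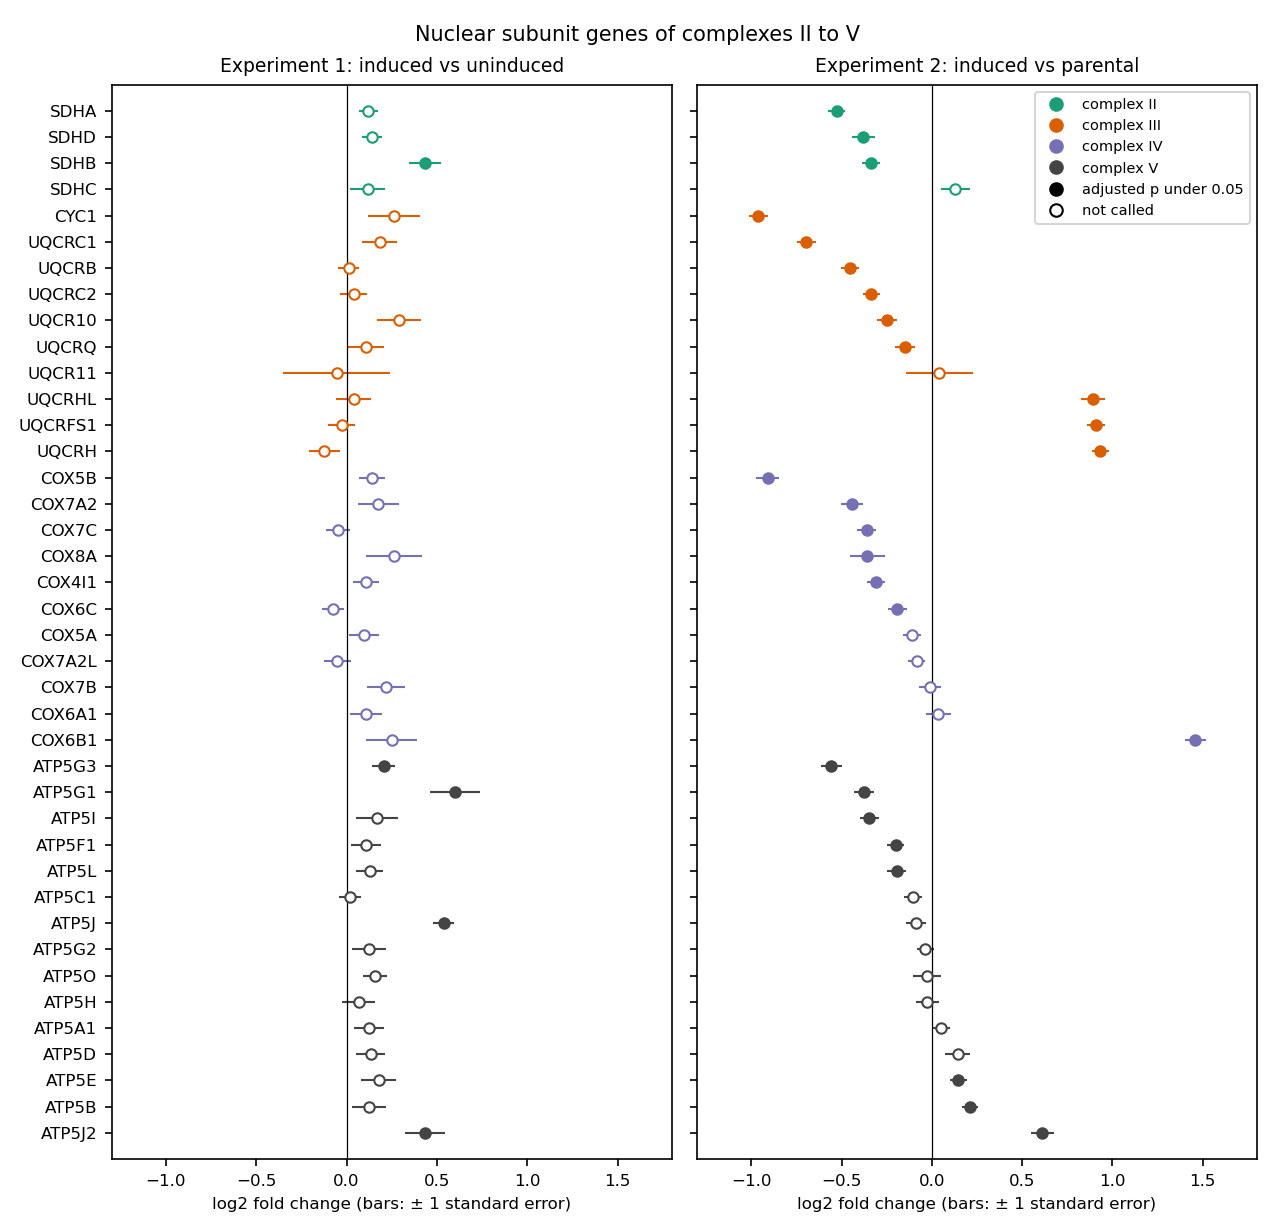
Log2 fold change of each of the 40 tested members (rows, grouped by complex) in experiment 1 (left, induced against uninduced) and experiment 2 (right, induced against parental), with bars of 1 standard error. Filled points passed an adjusted p of 0.05: 5 on the left, all above 0, and 7 above and 20 below 0 on the right, where COX6B1 lies farthest out at 1.46.

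Promoters of respiratory genes are known for sites of NRF1, of the ETS factor GABPA and of YY1. The RefSeq table (GRCh38.p14) held a promoter, from 250 bases before to 50 after the start, for 33 of the 43 members, missing SDHC, CYC1, UQCRB, COX6C, UQCRHL, ATP5B, ATP5D, ATP5G3, ATP5J2 and ATP5L2. The comparison was with 15843 promoters of protein-coding genes, 1 per gene. On either strand, the NRF1 motif, of 10 letters and seen below in SDHA, was in 10 of the 33 (30.3%, against 8.58% of the 15843). The ETS letters CCGGAAG were in 14 (42.4%, against 14.2%) and the YY1 letters AANATGGC in 10 (30.3%, against 7.92%). TATAAA was in 3 (9.09%, against 9.63%). At least 1 of the first 3 motifs was in 23 of 33 members (69.7%, against 26.6%), and no matches overlapped in the members. Among members lower in experiment 2, ETS letters were in 8 of 16 promoters, NRF1 letters in 5 and YY1 letters in 5. Among those higher they were in 2, 1 and 1 of 4, and among those not called in 4, 3 and 4 of 11. The motifs thus stood in promoters of members that went either way, and a match describes letters, not binding.

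Below are 6 promoters that show this, 5' to 3' on the gene's strand, with matches in capitals. COX6B1, at chr19:35648073-35648372 (plus strand), UQCRFS1, at chr19:29213102-29213401 (minus strand), and UQCRH, at chr1:46303448-46303747 (plus strand), belong to the members that rose most in experiment 2. COX5B, at chr2:97645812-97646111 (plus strand), and SDHA, at chr5:218070-218369 (plus strand), fell there. ATP5J, at chr21:25735005-25735304 (minus strand), was called in experiment 1 and not in experiment 2. COX5B carries 2 ETS matches and COX6B1 and UQCRH 1 each. SDHA carries the NRF1 letters 4 times, UQCRFS1 NRF1 and YY1 letters once each, and ATP5J ETS, YY1 and TATA letters once each.
COX6B1: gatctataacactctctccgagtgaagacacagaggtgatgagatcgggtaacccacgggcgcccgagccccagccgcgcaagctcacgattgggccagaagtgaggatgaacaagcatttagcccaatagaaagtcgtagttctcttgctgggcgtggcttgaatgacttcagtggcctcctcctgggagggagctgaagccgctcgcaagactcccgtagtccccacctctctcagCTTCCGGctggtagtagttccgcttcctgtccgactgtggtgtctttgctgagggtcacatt
UQCRFS1: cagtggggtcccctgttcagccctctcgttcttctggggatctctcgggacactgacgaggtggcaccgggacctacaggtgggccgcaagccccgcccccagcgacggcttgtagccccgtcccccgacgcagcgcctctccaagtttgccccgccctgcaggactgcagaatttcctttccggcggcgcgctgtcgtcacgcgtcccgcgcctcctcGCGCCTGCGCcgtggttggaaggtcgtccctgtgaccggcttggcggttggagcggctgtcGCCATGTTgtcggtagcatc
UQCRH: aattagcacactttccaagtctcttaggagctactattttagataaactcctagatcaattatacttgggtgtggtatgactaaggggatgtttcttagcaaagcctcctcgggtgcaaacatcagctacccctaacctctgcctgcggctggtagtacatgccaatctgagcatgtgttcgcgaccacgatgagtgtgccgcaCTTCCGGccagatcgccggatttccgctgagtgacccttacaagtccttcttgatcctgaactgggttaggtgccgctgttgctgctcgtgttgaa
COX5B: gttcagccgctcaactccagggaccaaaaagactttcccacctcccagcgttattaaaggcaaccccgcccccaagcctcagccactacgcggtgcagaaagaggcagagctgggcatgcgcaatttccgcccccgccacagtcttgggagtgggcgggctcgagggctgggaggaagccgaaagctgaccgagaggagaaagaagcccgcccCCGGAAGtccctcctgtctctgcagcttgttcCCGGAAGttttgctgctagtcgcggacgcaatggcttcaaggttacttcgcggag
SDHA: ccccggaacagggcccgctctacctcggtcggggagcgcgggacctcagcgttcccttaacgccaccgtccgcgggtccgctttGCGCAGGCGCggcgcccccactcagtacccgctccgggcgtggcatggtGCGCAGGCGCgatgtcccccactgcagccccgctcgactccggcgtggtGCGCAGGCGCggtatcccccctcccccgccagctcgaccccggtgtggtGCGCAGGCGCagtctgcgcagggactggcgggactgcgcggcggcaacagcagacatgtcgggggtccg
ATP5J: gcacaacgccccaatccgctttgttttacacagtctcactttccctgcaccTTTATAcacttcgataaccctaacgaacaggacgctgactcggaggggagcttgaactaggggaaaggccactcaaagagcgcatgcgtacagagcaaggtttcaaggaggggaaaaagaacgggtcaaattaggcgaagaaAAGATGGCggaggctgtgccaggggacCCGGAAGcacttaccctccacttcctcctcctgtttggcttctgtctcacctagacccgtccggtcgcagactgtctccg

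In complex II, 3 of the 4 genes fell in experiment 2, and 1 of the 4 rose in experiment 1. Of all genes tested, 32.9% were called lower in experiment 2 and 10.5% higher in experiment 1. SDHA encodes the flavoprotein that oxidises succinate. It had 98.7, 101 and 95.8 CPM in the uninduced and 107, 103 and 110.3 CPM in the induced libraries of experiment 1, and 251, 247 and 242 CPM in the parental and 167, 169 and 178 CPM in the induced libraries of experiment 2. All parental libraries lay above all 9 others. It fell by 0.53 on the log2 scale (SE 0.046, adjusted p = 1.82e-09), 1.44-fold, in experiment 2, and its log2 fold change in experiment 1 was 0.12 (SE 0.052, adjusted p = 0.131). Reads of SDHA may be shared with its close pseudogenes, whose counting is not given in the sources used here. SDHAP1, SDHAP3 and SDHAP4 together had 34.8% to 38.3% of the SDHA reads in uninduced, 35.2% to 39.5% in induced, 16.3% to 17.8% in parental and 25.8% to 27.7% in the induced libraries of experiment 2. With their reads added to SDHA, an alternative chosen after seeing the data, the log2 fold change was -0.41 in experiment 2 (adjusted p = 5.70e-08, edgeR) and 0.13 in experiment 1 (adjusted p = 0.103).

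SDHB, the iron-sulfur subunit, is the member of complex II called in both experiments, in opposite directions. Its levels were 77.3, 77.2 and 62.1 CPM in the uninduced and 100.05, 90.3 and 102 CPM in the induced libraries of experiment 1, and 114, 102 and 105 CPM in the parental and 84.3, 81.9 and 88.6 CPM in the induced libraries of experiment 2. The groups did not overlap in either experiment: induced cells were high in experiment 1, parental cells in experiment 2. SDHB rose by 0.43 on the log2 scale (SE 0.089, adjusted p = 0.0105) with induction in experiment 1 and fell by 0.34 on the log2 scale (SE 0.052, adjusted p = 6.97e-06) in experiment 2. The difference between these changes was -0.77 (SE 0.11, adjusted p = 8.33e-06). The call in experiment 1 was lost without induced library 1 (adjusted p = 0.0562) and without induced library 3 (adjusted p = 0.0529).

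SDHC and SDHD anchor the complex in the membrane. SDHD had 31.4, 30.5 and 31.6 CPM in parental and 24.6, 22.7 and 24.6 CPM in induced cells, without overlap, and fell by 0.38 on the log2 scale (SE 0.063, adjusted p = 1.90e-05). In experiment 1 it had 31.9, 30.5 and 33.3 CPM in uninduced and 36.0, 34.1 and 35.3 CPM in induced cells, with a log2 fold change of 0.14 (SE 0.057, adjusted p = 0.113). Without uninduced library 3 it was called there, at 0.17 (adjusted p = 0.0401). SDHC was not called in either experiment, with log2 fold changes of 0.12 (SE 0.099, adjusted p = 0.443) and 0.13 (SE 0.082, adjusted p = 0.17). Summed over the 4 genes, complex II transcripts came to 212 ± 10.4 CPM in uninduced and 249.7 ± 10.5 in induced cells of experiment 1, and to 398 ± 10.1 in parental and 294 ± 10.2 in induced cells of experiment 2 (SD, n = 3).

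Complex III split in experiment 2: 6 of its 10 genes fell, 3 rose and 1, UQCR11, was not called. Of all genes tested there, 32.9% were called lower and 32.1% higher. In experiment 1 none of the 10 was called, against 20.9% of all genes tested. Their log2 fold changes there ran from -0.12 to 0.29, with 1 at an unadjusted p under 0.05. CYC1 encodes cytochrome c1, the subunit that hands electrons to cytochrome c. It had 68.2, 68.6 and 44.7 CPM in the uninduced and 75.6, 66.3 and 76.7 CPM in the induced libraries of experiment 1, and 134, 138 and 123 CPM in the parental and 66.5, 68.0 and 68.2 CPM in the induced libraries of experiment 2. Parental libraries stood far above the 3 other groups, which overlapped one another. It fell by 0.96 on the log2 scale (SE 0.052, adjusted p = 7.32e-13), 1.95-fold, the lowest value of any member in experiment 2. In experiment 1 its log2 fold change was 0.26 (SE 0.14, adjusted p = 0.224), with uninduced library 3 the low value. UQCRC1, a core subunit of the matrix side, also fell, from 116, 111 and 108 CPM to 65.0, 67.8 and 74.2 CPM, or -0.70 (SE 0.053, adjusted p = 2.28e-10).

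UQCRB, a small subunit near the ubiquinone site, had 425, 420.5 and 441 CPM in parental and 324, 296 and 320.2 CPM in induced cells, without overlap, and fell by 0.45 on the log2 scale (SE 0.048, adjusted p = 4.06e-08). The other 3 genes that fell (UQCRC2, UQCR10 and UQCRQ) had values between -0.34 and -0.15. UQCRQ was no longer called without parental library 1 (adjusted p = 0.114, edgeR), parental library 3 (0.0575) or induced library 2 (0.114), or with all 12 libraries in the fit (0.142). UQCR11 had little signal, at 0.666 to 2.28 CPM in every library.

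The 3 genes of complex III that rose in experiment 2 did so by similar amounts, but UQCRH and UQCRHL among them may share reads. UQCRFS1 encodes the Rieske iron-sulfur protein, which carries electrons from ubiquinol to cytochrome c1. Its levels were 136, 132 and 118 CPM in the uninduced and 135, 117 and 126 CPM in the induced libraries of experiment 1, and 122, 108 and 110.2 CPM in the parental and 212, 212 and 215 CPM in the induced libraries of experiment 2. The induced libraries of experiment 2 lay above the other 9, while parental cells overlapped both groups of experiment 1. It rose by 0.91 on the log2 scale (SE 0.050, adjusted p = 1.12e-12), 1.88-fold, and in experiment 1 its log2 fold change was -0.028 (SE 0.072, adjusted p = 0.819).

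UQCRH, the hinge protein that helps cytochrome c dock, had 268, 272 and 223 CPM in the uninduced and 248, 219 and 234 CPM in the induced libraries of experiment 1, and 175, 164 and 170.4 CPM in the parental and 324, 313 and 336 CPM in the induced libraries of experiment 2. Here parental cells were the lowest group and induced cells of experiment 2 the highest, with experiment 1 between. It rose by 0.93 on the log2 scale (SE 0.047, adjusted p = 2.54e-13) in experiment 2. In experiment 1 its value was -0.12 (SE 0.083, adjusted p = 0.333), and without uninduced library 3 it was called lower, at -0.21 (adjusted p = 0.0148). UQCRHL, a near-identical copy elsewhere on chromosome 1, had 35.8, 29.5 and 34.8 CPM in parental and 61.98, 58.9 and 64.7 CPM in induced cells and rose by 0.89 on the log2 scale (SE 0.066, adjusted p = 1.48e-10). Reads of UQCRH and UQCRHL may have been split between them. Their sum was 288 ± 31.8, 268 ± 15.3, 203 ± 8.70 and 386 ± 14.4 CPM in uninduced, induced, parental and induced cells (SD, n = 3, in the order of the experiments). Summed over complex III, gains and losses nearly cancelled in experiment 2, at 1515 ± 48.7 CPM in parental and 1484 ± 45.0 CPM in induced cells.

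**Figure D2:**
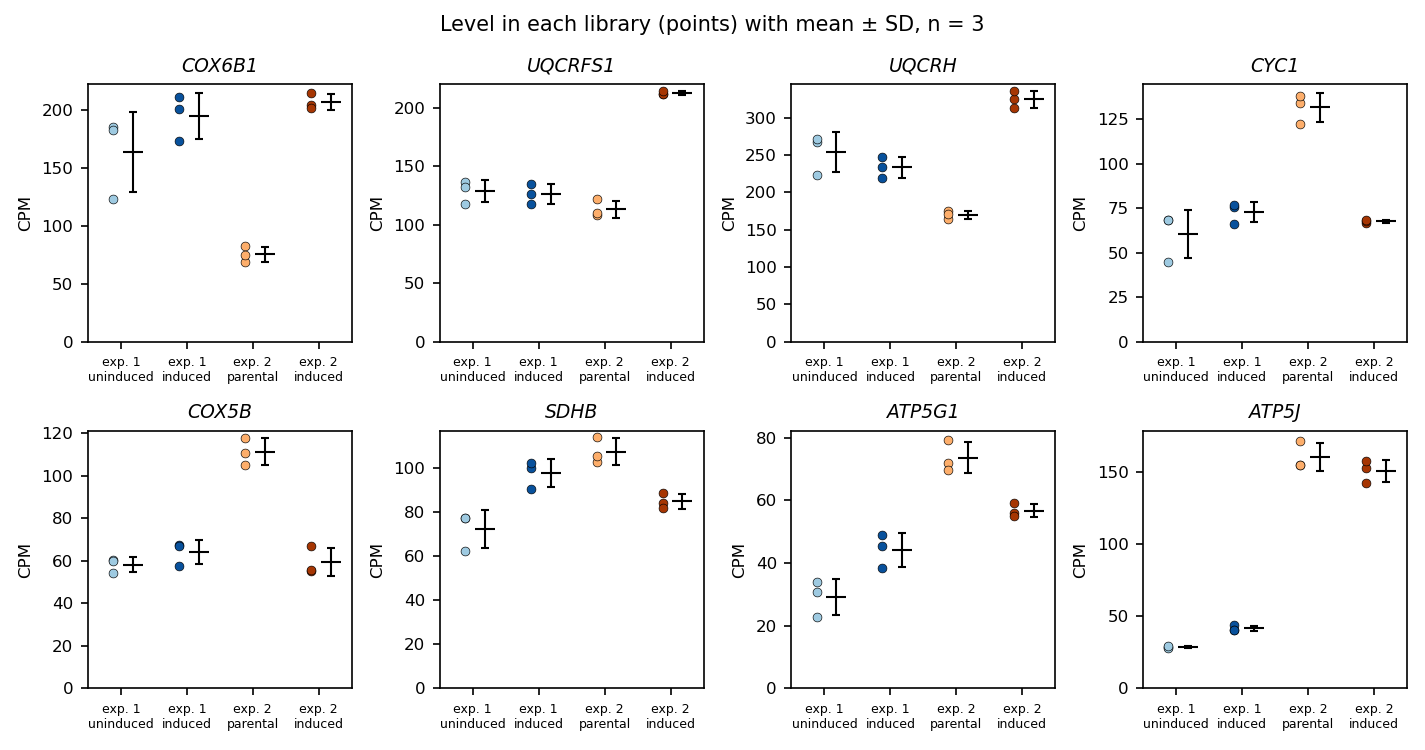
CPM of 8 members in each of the 12 libraries (points, 3 per group), with the mean and SD beside them; each vertical axis starts at 0 and has its own range. Parental cells are the lowest group for COX6B1 and UQCRH and the highest for CYC1 and COX5B, and for ATP5J the groups of experiment 1 lie between 28.1 and 43.7 CPM and those of experiment 2 between 142 and 171 CPM.

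In complex IV, cytochrome c oxidase, 1 gene rose and 6 fell in experiment 2, and 4 of the 11 tested were not called. That share of calls was near the 65.0% of all genes tested, of which 32.1% were higher and 32.9% lower. In experiment 1 none of the 11 was called, against 20.9% of all genes tested, and none reached an unadjusted p under 0.05. COX6B1, a subunit on the intermembrane side that joins the dimer, had 185, 182 and 123 CPM in the uninduced and 200.3, 173 and 211 CPM in the induced libraries of experiment 1, and 82.3, 68.9 and 74.7 CPM in the parental and 204, 202 and 214 CPM in the induced libraries of experiment 2. Parental libraries were the lowest of all, and the induced libraries of both experiments overlapped. COX6B1 rose by 1.46 on the log2 scale (SE 0.057, adjusted p = 3.06e-15), 2.75-fold, the highest value of any member in experiment 2. In experiment 1 it was 0.25 (SE 0.14, adjusted p = 0.246), with uninduced library 3 well under its group.

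COX5B, a zinc-binding subunit of the matrix side, moved the other way. Its levels were 60.5, 59.9 and 54.2 CPM in the uninduced and 67.5, 57.7 and 67.2 CPM in the induced libraries of experiment 1, and 111, 118 and 105 CPM in the parental and 55.4, 55.7 and 66.9 CPM in the induced libraries of experiment 2. Parental libraries again stood alone, here on the high side, and the other 3 groups overlapped. It fell by 0.91 on the log2 scale (SE 0.063, adjusted p = 5.59e-11), 1.88-fold, in experiment 2 and had 0.14 (SE 0.073, adjusted p = 0.209) in experiment 1.

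Several complex IV subunits exist as ubiquitous and tissue-bound isoforms, and the tissue-bound ones had few reads. COX4I1, the ubiquitous form of subunit 4, fell from 144, 131 and 141 CPM in parental to 111, 111 and 115 CPM in induced cells, by 0.31 on the log2 scale (SE 0.049, adjusted p = 1.10e-05), while its lung isoform COX4I2 had 1 read in the 6 libraries of experiment 1. COX7A2, the ubiquitous form of subunit 7A, had 111, 98.0 and 102 CPM in parental and 80.4, 68.9 and 79.0 CPM in induced cells and fell by 0.44 on the log2 scale (SE 0.059, adjusted p = 1.19e-06). Its muscle isoform COX7A1 had at most 3 reads in a library of experiment 1. COX7A2L, a relative of subunit 7A found in supercomplexes, was not called in either experiment (-0.052 and -0.085), and neither was COX7B (0.22 and -0.0098). COX7B2 had 1 read.

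COX8A, the ubiquitous form of subunit 8, had 25.9, 18.9 and 19.0 CPM in parental and 15.9, 16.3 and 17.5 CPM in induced cells and fell by 0.36 on the log2 scale (SE 0.098, adjusted p = 0.00322). Parental library 1 lay well above the other 2, and without it the log2 fold change was -0.19 (adjusted p = 0.0427, edgeR). Its testis isoform COX8C had 0 to 6 reads, and COX6B2, the testis form of subunit 6B, 0 to 10 reads per library. COX7C, a small membrane subunit, fell by 0.36 on the log2 scale (SE 0.051, adjusted p = 2.75e-06), from 135, 123 and 134 CPM to 101, 97.7 and 106 CPM. COX6C, the last of the 6 that fell, had -0.19, and COX5A was not called (-0.11).

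COX6A1, the liver form of subunit 6A, was not called in either experiment, with 43.5, 42.1 and 35.5 CPM in the uninduced and 45.3, 39.5 and 45.8 CPM in the induced libraries of experiment 1, and 26.1, 23.7 and 23.6 CPM in the parental and 24.8, 24.3 and 26.2 CPM in the induced libraries of experiment 2. Both groups of experiment 1 lay above both groups of experiment 2. Its pseudogene COX6A1P2 showed the reverse order, at 26.8 ± 7.76, 30.8 ± 2.74, 44.04 ± 2.91 and 45.7 ± 2.64 CPM in uninduced, induced, parental and induced cells (SD, n = 3). The sum of gene and pseudogene was 67.2 ± 12.02, 74.3 ± 6.17, 68.5 ± 3.68 and 70.7 ± 3.58 CPM. These means differed by less than the SD of the uninduced libraries, the largest SD. The lowest and highest mean differed by more than each of the other SDs. How the counting divided reads between the copies was not tested. Summed over complex IV, transcripts came to 981 ± 92.4 and 1055 ± 71.9 CPM in experiment 1 and 940.3 ± 34.2 and 914 ± 38.5 CPM in experiment 2, controls first.

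Complex V, with 15 of the 40 tested members, held 4 of the 5 calls of experiment 1, where 20.9% of all genes tested were called. In experiment 2, 3 of its 15 tested genes rose, 5 fell and 7 were not called, where 65.0% of all genes tested were called. In experiment 1 all 15 had log2 fold changes above 0, from 0.018 to 0.60, where the median over all genes tested was 0.0026. Summed over complex V, uninduced library 3 was the lowest there, at 1612 CPM. Uninduced libraries 1 and 2, at 1919 and 1898 CPM, lay within the range of the induced libraries (2090, 1822 and 2063 CPM). ATP5J encodes coupling factor 6 of the peripheral stalk. It had 28.3, 28.1 and 29.5 CPM in the uninduced and 43.7, 40.3 and 40.6 CPM in the induced libraries of experiment 1, and 155, 154 and 171 CPM in the parental and 153, 142 and 157 CPM in the induced libraries of experiment 2. Induced cells lay above uninduced ones without overlap in experiment 1, the groups of experiment 2 overlapped, and every library of experiment 2 was far above every library of experiment 1. ATP5J rose by 0.54 on the log2 scale (SE 0.057, adjusted p = 0.000696), 1.45-fold, in experiment 1. This was the smallest adjusted p of the members there, and it stayed under 0.05 without each library in turn. In experiment 2 its value was -0.088 (SE 0.053, adjusted p = 0.153).

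The ring of ATP synthase turns with the proton flow and is made of subunit c, which 3 genes encode with different import sequences but the same mature protein. ATP5G1 had 30.7, 33.8 and 22.7 CPM in the uninduced and 45.5, 38.3 and 48.9 CPM in the induced libraries of experiment 1, and 79.3, 71.9 and 69.8 CPM in the parental and 56.0, 55 and 59.0 CPM in the induced libraries of experiment 2. Induced cells were high in experiment 1 and parental cells in experiment 2, with no overlap in either. It rose by 0.60 on the log2 scale (SE 0.14, adjusted p = 0.016), 1.52-fold, in experiment 1 and fell by 0.38 on the log2 scale (SE 0.055, adjusted p = 3.97e-06) in experiment 2. ATP5G3 went the same way at 0.21 (SE 0.063, adjusted p = 0.0463) in experiment 1 and -0.56 (SE 0.057, adjusted p = 2.56e-08) in experiment 2. Its levels were 74.7, 74.7 and 67.0 CPM in the uninduced and 84.7, 78.7 and 86.3 CPM in the induced libraries of experiment 1, and 139, 123 and 133 CPM in the parental and 91.0, 81.8 and 95.7 CPM in the induced libraries of experiment 2. ATP5G2 was not called in either, at 0.12 (SE 0.096, adjusted p = 0.396) and -0.035 (SE 0.049, adjusted p = 0.546), with groups that overlapped both times.

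ATP5J2, the membrane subunit f, is the member called higher in both experiments. Its levels were 30.3, 31.6 and 25.6 CPM in the uninduced and 41.9, 33.2 and 43.2 CPM in the induced libraries of experiment 1, and 114, 99.4 and 124 CPM in the parental and 174, 176 and 165 CPM in the induced libraries of experiment 2. The induced group was the higher one each time, without overlap. It rose by 0.43 on the log2 scale (SE 0.11, adjusted p = 0.0232) in experiment 1 and rose by 0.61 on the log2 scale (SE 0.063, adjusted p = 2.60e-08) in experiment 2, and the difference between the changes was 0.18 (SE 0.13, adjusted p = 0.282). ATP5B, the catalytic beta subunit, rose by 0.21 on the log2 scale (SE 0.045, adjusted p = 0.000354) in experiment 2, from 525, 519 and 531 CPM to 592, 619.7 and 609 CPM. ATP5E, the small epsilon subunit of the central stalk, rose by 0.15 on the log2 scale (SE 0.047, adjusted p = 0.00985), from 112, 112 and 117 CPM to 129, 122 and 125 CPM. With all 12 libraries in the fit, ATP5E was no longer called (adjusted p = 0.113). The other 3 genes that fell in experiment 2 (ATP5F1, ATP5I and ATP5L) ranged from -0.35 to -0.19. Summed transcripts of complex V came to 1809.6 ± 171 and 1992 ± 148 CPM in experiment 1 and 2505 ± 98.1 and 2512 ± 41.9 CPM in experiment 2, controls first.

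Of the 5 calls in experiment 1, only that of ATP5J held in every alternative analysis run. Those of ATP5G1 and ATP5J2 were lost without induced library 1 (adjusted p = 0.0719 and 0.103) and without induced library 3 (0.0695 and 0.0958), and that of ATP5G3 without any library but uninduced library 3 (adjusted p from 0.0521 to 0.178).

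The share of members whose changes differed between the experiments was near that of all genes, with more calls on the lower side. Tested over all 12 libraries, 23 of 40 members had a change in experiment 2 that differed from that in experiment 1, 4 toward higher and 19 toward lower, where 52.2% of 19942 genes were called, 25.9% higher and 26.3% lower. The median difference of the members was -0.24, against -0.0027 over all genes. By complex, the lower calls were 3 of 4 in complex II, 5 of 10 in III, 5 of 11 in IV and 6 of 15 in V, and the higher calls 3 in III and 1 in IV. The difference was beyond 1 on the log2 scale for 4 genes: 1.21 (SE 0.16, adjusted p = 5.00e-06) for COX6B1, 1.05 (SE 0.099, adjusted p = 7.19e-08) for UQCRH, -1.05 (SE 0.11, adjusted p = 3.13e-07) for COX5B and -1.23 (SE 0.16, adjusted p = 3.09e-06) for CYC1. For COX6B1, COX5B and CYC1 the group that stood away from the other 3 was the parental one.

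Set among all 4 groups, the parental libraries lay outside the other 9 libraries for 45.0% of the 40 members, near the 42.4% of the genes tested. They lay above every other library for 14 of the 20 members lower in experiment 2, and below for 2 of the 7 that were higher. These members were chosen by their direction against parental cells, which sets part of both counts. The matching shares among all genes called lower or higher in experiment 2 were not taken, so the counts by direction have no background and nothing is drawn from them.

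Induced cells carry the same label in both experiments, yet 6 of the 40 tested members differed by more than 1 on the log2 scale between them, all with more CPM in experiment 2. The log2 ratio of experiment 2 over experiment 1 was 2.13 for ATP5J2, 1.86 for ATP5J, 1.57 for UQCRB and 1.57 for UQCR10, a small subunit of complex III. It was 1.19 for UQCR11 and 1.005 for ATP5L, the membrane subunit g. UQCR10, for instance, had 72.8, 65.8 and 76.4 CPM in the induced libraries of experiment 1 and 205, 210.04 and 222 CPM in those of experiment 2, and these 6 genes were singled out after their values were seen. The median ratio of the tested members was 0.14, and none of them lay below -1. UQCR11, with means of 0.883 and 2.01 CPM in the induced groups, lies under the level asked of the genes compared next. Among 10266 genes with at least 10 CPM in an induced group, 15.9% lay beyond 1 in either direction, 11.4% above it, and the median was 0.19. The induced groups overlapped for 11 of 40 members and for 15.4% of those genes. The experiments also differ in their share of MT-RNR2, given above, whose part in these ratios was not tested.

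**Figure D3:**
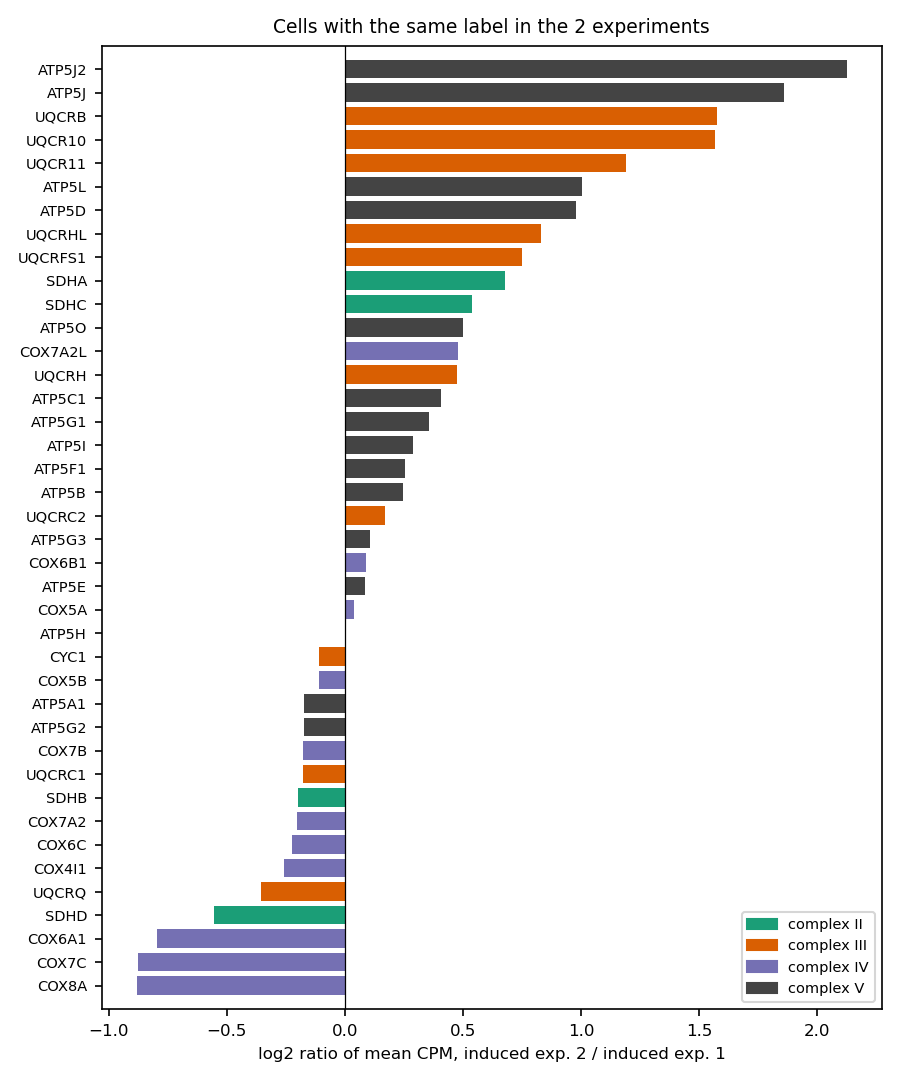
Log2 ratio of the mean CPM in induced cells of experiment 2 over induced cells of experiment 1 for the 40 tested members (bars, 3 libraries in each mean, coloured by complex). The bars run from -0.88 for COX8A to 2.13 for ATP5J2, and 6 pass 1.

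Members of 1 complex went in different directions in experiment 2, and several had neighbours on the chromosome with changes like their own. For each member the 10 tested genes on each side, in RefSeq order and other members left out, were described without a test, since neighbouring genes share the same libraries. In experiment 2, COX6B1, on chromosome 19, had a log2 fold change of 1.46 and its neighbours a median of 1.34, with 20 of 20 called higher. UQCRFS1, on the same chromosome, had 0.91 against 1.14, with 16 neighbours higher and 3 lower. CYC1 had -0.96 against -0.87, with 18 of 20 lower.

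The same held for COX5B, on chromosome 2, at -0.91 against -0.67, with 15 neighbours lower and 0 higher, and for ATP5J2, on chromosome 7, at 0.61 against 0.71, with 19 higher. COX8A, on chromosome 11, had -0.36 against -0.51, with 17 lower. ATP5D, on chromosome 19, was not called, at 0.14 against 0.53 with 12 neighbours higher and 3 lower. UQCRHL went against its surroundings, at 0.89 against -0.27, but its reads may be shared with UQCRH, as said above. ATP5G3 went against its own too, at -0.56 against 0.14, as did ATP5G1, at -0.38 against 0.054. COX7A2 (-0.44 against 0.075) and COX7C (-0.36 against 0.13) were also called against the sign of their neighbours. ATP5G2, ATP5O and UQCR11, not called, had the opposite sign as well. UQCRH had 0.93 against 0.40. Of the genes that help build these complexes, SDHAF1, an assembly factor of complex II, lies 10 genes from COX6B1 and had 1.35, and COA5, a complex IV assembly factor, lies 6 genes from COX5B and had -0.83.

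Across the 40 members the log2 fold change and the median of the neighbours had the same sign in 32 (80.0%) in experiment 2, with Pearson's r of 0.77 and Spearman's rho of 0.61. Over 15367 genes placed the same way, the sign was shared by 69.3%, with r of 0.30 and rho of 0.47. Neighbour medians lay beyond 0.5 for 7 of 40 members (17.5%) and for 12.5% of those genes. In experiment 1 the sign was shared by 31 of 40 (77.5%, against 57.6% of 15878 genes), with r of 0.45 against 0.20. There SDHB had 0.43 against a neighbour median of 0.34 with 9 of 20 called higher, and ATP5J 0.54 against 0.33 with 10 of 20, among them GABPA, the ETS factor subunit, which lies next to ATP5J. ATP5G1, at 0.60, had neighbours at 0.037.

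**Figure D4:**
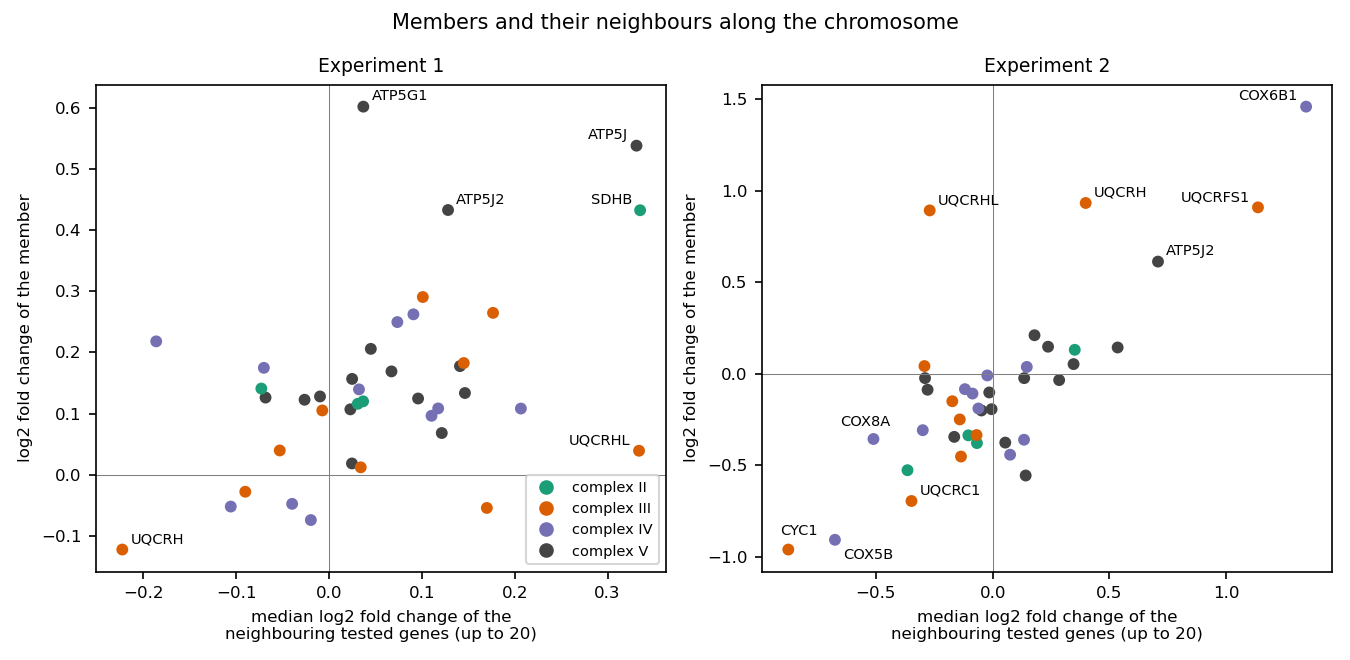
Log2 fold change of each member (vertical) against the median log2 fold change of up to 20 tested neighbours on the chromosome (horizontal) in experiment 1 (left) and experiment 2 (right), 40 points each, coloured by complex. In experiment 2 COX6B1 lies at the upper right (1.46 and 1.34) and CYC1 at the lower left (-0.96 and -0.87), while UQCRHL lies high at a neighbour median of -0.27. Reads of UQCRHL may be shared with UQCRH.

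Over all genes tested, 20.9% were called in experiment 1 and 65.0% in experiment 2, to be set beside each gene list below. Of the 6 subunits of complexes III to V that mitochondrial DNA encodes, 3 rose in experiment 1 and 0 fell, with a median of 0.34. These were MT-CYB (0.58, adjusted p = 0.00296), cytochrome b of complex III, MT-ATP6 (0.48, adjusted p = 0.00466), subunit a of the ATP synthase, and MT-CO3 (0.36, adjusted p = 0.0364), a core subunit of complex IV, the last named after its value was seen. In experiment 2, MT-CO1 (0.60, adjusted p = 3.73e-08), the catalytic core of complex IV, rose, while MT-ATP8 (-0.66, adjusted p = 2.85e-06) and MT-ATP6 (-0.25, adjusted p = 0.00493) fell, with a median of -0.13. Under DESeq2 the MT-ATP6 call of experiment 2 was lost (adjusted p = 0.0757). MT-CYB had 772 ± 46.0 CPM in uninduced, 1149.7 ± 118 in induced, 234 ± 35.8 in parental and 209 ± 24.2 in the induced cells of experiment 2 (SD, n = 3).

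Assembly factors of complexes II to V went both ways, and their share of calls was near that of all genes in both experiments. In experiment 1, 6 of 40 rose and 4 fell, with a median of 0.12, where 20.9% of all genes were called. The highest were SCO2 (0.61, adjusted p = 0.0166) and COA3 (0.49, adjusted p = 0.0419), which serve complex IV, and the lowest SDHAF4 (-0.48, adjusted p = 0.00338) and COX19 (-0.38, adjusted p = 0.0075). In experiment 2, 9 of 39 rose and 16 fell, with a median of -0.10, where 65.0% of all genes were called. The highest were SDHAF1 (1.35, adjusted p = 1.12e-12) and SURF1 (0.54, adjusted p = 2.80e-05), and the lowest TTC19 (-1.65, adjusted p = 5.31e-17), which acts on complex III, and ATPAF2 (-1.64, adjusted p = 3.97e-14), which acts on the F1 part of the ATP synthase. TTC19 fell from 167 ± 4.33 CPM in parental to 53.2 ± 2.05 in induced cells and had 80.7 ± 3.30 and 69.9 ± 1.44 in experiment 1.

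Among 5 subunits and partners whose symbols lie outside the rule, 2 rose in experiment 1, ATPIF1 (0.48, adjusted p = 0.0034), the inhibitor of ATP hydrolysis by the synthase, and CYCS (0.22, adjusted p = 0.02), cytochrome c. In experiment 2, USMG5 (0.19, adjusted p = 0.0028) rose and 3 fell, the lowest being ATPIF1 (-0.46, adjusted p = 5.59e-08) and NDUFA4 (-0.38, adjusted p = 9.30e-06). Of 13 nuclear regulators of respiratory genes, 5 rose and 2 fell in experiment 1, with a median of 0.16. The highest were TFB2M (0.54, adjusted p = 0.0056), a mitochondrial transcription factor, and GABPA (0.47, adjusted p = 0.00196), and the 2 that fell were TFB1M (-0.43, adjusted p = 0.00247) and PPARGC1A (-0.24, adjusted p = 0.0432), the coactivator PGC-1alpha. In experiment 2, TFB2M (0.27, adjusted p = 0.0258) rose and 5 fell, led by PPARGC1A (-0.83, adjusted p = 3.48e-08) and POLRMT (-0.34, adjusted p = 9.47e-06), the mitochondrial RNA polymerase. The calls of CYCS, SCO2, COA3 and PPARGC1A in experiment 1 and of TFB2M in experiment 2 were lost without at least 1 library (adjusted p up to 0.0900, 0.0805, 0.162, 0.161 and 0.113).

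Circular RNAs, made when a later exon is joined back to an earlier start, were few for members. Leaving aside hosts on chromosome 8, 13 members were hosts of 28 circRNAs with 426 back-splice reads in experiment 1, of which 15 had 1 read. In experiment 2, 13 members were hosts of 29 circRNAs with 385 reads, 11 of them with 1 read. Most reads came from 1 circRNA of ATP5C1, the gamma subunit of the rotating stalk, at chr10:7839010-7844817 on the plus strand (GRCh37, 6 exons, 799 nucleotides). It had 74, 69 and 28 reads in uninduced and 77, 49 and 52 in induced cells of experiment 1. In experiment 2 it had 32, 57 and 67 reads in parental and 41, 39 and 62 in induced cells. The ranges of the groups overlapped in both experiments, and ATP5C1 was chosen for its reads after they were seen. Its gene-level log2 fold changes were 0.018 (SE 0.061, adjusted p = 0.863) and -0.10 (SE 0.050, adjusted p = 0.0801). Next was a circRNA of COX5A, a subunit of complex IV, at chr15:75219107-75221573 on the minus strand, with 19 reads in experiment 1 and 20 in experiment 2.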

How the data were processed

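Gene read counts and circRNA back-splice read counts of 12 samples were used as the authors deposited them, without normalization. The submitters' processing notes name STAR 2.5.2b and the build GRCh37 (hg19), with no role stated. The counter, the circRNA caller and the strand setting are not given in the sources used here. Per the labels' protocols, total RNA went into Illumina TruSeq RNA libraries, sequenced from both ends on a NextSeq500.

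Each experiment was tested on its whole gene table with the two-sided quasi-likelihood F-test of edgeR 4.0.16 (limma 3.58.1, R 4.3.3), after filterByExpr (minimum count 10, minimum total 15) and TMM scaling. Whether a change differed between experiments was tested as an interaction in 1 fit of all 12 libraries. Adjustment was by Benjamini-Hochberg over every gene tested. CPM uses effective library sizes over all 12 libraries. Gene lengths were not used here, so levels are compared within a gene only. The test was tried on simulated data first. DESeq2 1.42.0, other scalings and filters, a replicate block and each library left out were the alternatives.

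Genes named with values were every member called in experiment 1, the 10 called members with the lowest and the 10 with the highest change in experiment 2, members whose changes differed by at least 1 between experiments, the isoform sets and the 4 SDH genes. Other members were named where a small count singled them out, after their values were seen. In the lists of other pathway genes, they were the called genes with the 2 lowest and the 2 highest changes in each list, with MT-CO3, COA5 and the other HEK293 markers added after their values were seen. The members and lists were chosen with earlier results of these data known. Precision was limited by 3 libraries per group, and small counts of circRNA reads carry counting error besides.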

Additional observations from a re-analysis of the deposited data

Results flagged for a closer look

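For 4 members the change in experiment 2 differed from that in experiment 1 by at least 1 on the log2 scale, by the test of the difference itself over 12 libraries (edgeR, adjusted over all genes tested). The log2 fold change of experiment 2 minus that of experiment 1 was 1.21 for COX6B1 and 1.05 for UQCRH (adjusted p = 5.00e-06 and 7.19e-08). It was -1.05 for COX5B and -1.23 for CYC1 (adjusted p = 3.13e-07 and 3.09e-06). The 2 experiments had different controls, untreated cells of the inducible line and parental cells with doxycycline, and these genes were named by their size of difference. Each of the 4 kept its direction and stayed called under the 19 alternatives tried.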

How the results depend on the processing

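The counts of experiment 2 (11669 genes, 27 members) and of the difference between experiments (10403 genes, 23 members) moved by less than 1.5 times under every alternative tried. In experiment 1, 3971 genes and 5 members were called. Without a filter on low counts 10 members were called there, all higher, among them COX6B1, CYC1, COX8A and COX7B.

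The replicate numbers did not pair the samples: same-numbered deviations correlated at 0.218, -0.168 and -0.0848 in experiment 1 and at 0.0030, 0.053 and -0.038 in experiment 2. With the replicate block, 2327 genes and 3 members were called in experiment 1, where ATP5G3 (adjusted p = 0.107) and ATP5J2 (0.0515) were not. Of 102 gene results, 72 were called without the block, and 68 of these stayed called with it while 4 did not.

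Leaving out each library in turn gave 1581 to 5231 genes and 1 to 8 members in experiment 1, the lowest counts without induced library 1 and the highest without uninduced library 3, with a member median of 0.0594 to 0.175. It gave 11036 to 11394 genes, 26 to 28 members and a median of -0.171 to -0.110 in experiment 2, and 9620 to 10564 genes, 23 to 25 members and a median of -0.318 to -0.197 for the difference. A few values near 0, none called, changed sign. In experiment 1, UQCRB had -0.0073 with library totals. The ranges that follow cover the main fit and all alternatives, and a library is named where leaving it out gave that end. In experiment 1 they were -0.035 (without induced library 1) to 0.054 for UQCRB and -0.11 to 0.0043 (without uninduced library 1) for COX7A2L. For UQCRFS1 the range was -0.088 to 0.019 (without induced library 2), and for UQCRHL -0.066 (without uninduced library 3) to 0.0995. For UQCRQ it was -0.0022 (without uninduced library 3) to 0.195, and for COX7C -0.096 to 0.0054 (without induced library 2). In experiment 2, COX7B ran from -0.060 to 0.062 (without induced library 2). The cause was not tested. Adding pseudogene reads, 1.82% to 2.41% of the members' own, to their members was chosen after seeing the data and gave 5, 27 and 23 member calls.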

Other observations

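UQCRC2, a core subunit of complex III, was host to a circRNA of 8 exons at chr16:21973781-21987564 (GRCh37, plus strand) with 14 reads in experiment 2, all in parental cells (5, 9 and 0 reads in libraries 1, 2 and 3) and 0 in the induced libraries. It was singled out after its reads were seen. All circRNAs of UQCRC2 together had 10, 13 and 1 reads in parental and 6, 0 and 1 in induced cells, so the groups overlapped, and 4, 1 and 0 in uninduced and 3, 3 and 3 in induced cells of experiment 1. At gene level UQCRC2 fell in experiment 2, by 0.34 on the log2 scale.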
